A study of Arabidopsis thaliana with 18 samples.

Results

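The T-DNA insertion alleles bes1-1 and bes1-3 of the gene BES1 were compared in uncultured Arabidopsis thaliana cotyledons: 3 arrays of bes1-1 against 3 of bes1-3, 6 of the 18 arrays in the series. All came from 6-day-old plants grown in liquid MS medium under continuous light and sampled at 0 h. Same-numbered replicates were matched, because the arrays of replicate 1 lay on a lower scale (medians 5.19 to 5.23) than those of replicates 2 and 3 (5.92 to 6.05). Each value below is a deposited log2 signal, and each difference is bes1-1 minus bes1-3. Used beside them were the 3 arrays of uncultured wild type (WT, accession Col) and the arrays at 72 h. The latter were cotyledons of the same genotypes cultured in VISUAL, a vascular induction medium with 2,4-D at 1.25 mg/L, kinetin at 0.25 mg/L and bikinin at 10 µM. Nothing in the labels ties the replicates to separate cultures; the p-values therefore cover the spread among these arrays, part or all of which may be technical.

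BES1 is a transcription factor through which brassinosteroid hormones act. When the hormone is absent, GSK3-like kinases phosphorylate it and keep it inactive; when the hormone is perceived, BES1 accumulates in the nucleus and switches target genes on or off. A pair of insertion alleles of one gene is commonly used so that an effect seen in both can be assigned to that gene. The BES1 transcript was not analysed here, so it could not serve as a check of the labels.

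Few genes were called between the 2 alleles, and more of the calls were lower than higher in bes1-1. Of 38408 probe sets, 301 were called (0.784%; limma, adjusted p below 0.05), 104 higher (0.271%) and 197 lower (0.513%) in bes1-1. Among 16505 named genes 122 were called (0.739%): 80 were lower in bes1-1 (0.485%), with a median difference of -1.29, and 42 were higher (0.254%), with a median of 0.851. The differences exceeded 1 in size for 54 of the lower and 13 of the higher genes. All 122 had matched differences of 1 sign in the 3 replicates. The 3 bes1-1 arrays lay entirely below those of bes1-3 for 70 of the 80 lower genes, against 2.93% of all named genes, and entirely above for 16 of the 42 higher genes, against 1.64%. The genes were called on these same arrays, which favours 1 sign and separate arrays, so nothing is read from these counts.

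These counts rest on a spread shared by all 18 arrays. A fit to the 6 arrays alone called 0 probe sets by limma (4568 at an unadjusted p under 0.05), a fit to the 9 arrays at 0 h called 6, and a fit without the replicate block called 27. Leaving out a whole replicate number left 9 to 20 calls, and leaving out any single one of the 6 arrays left 24 (without bes1-3 replicate 1) to 188 (without bes1-3 replicate 3). Scaling to the reference genes PEX4 and GAPC2, which lowered every difference by 0.11, gave 49 higher and 362 lower calls.

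**Figure D1:**
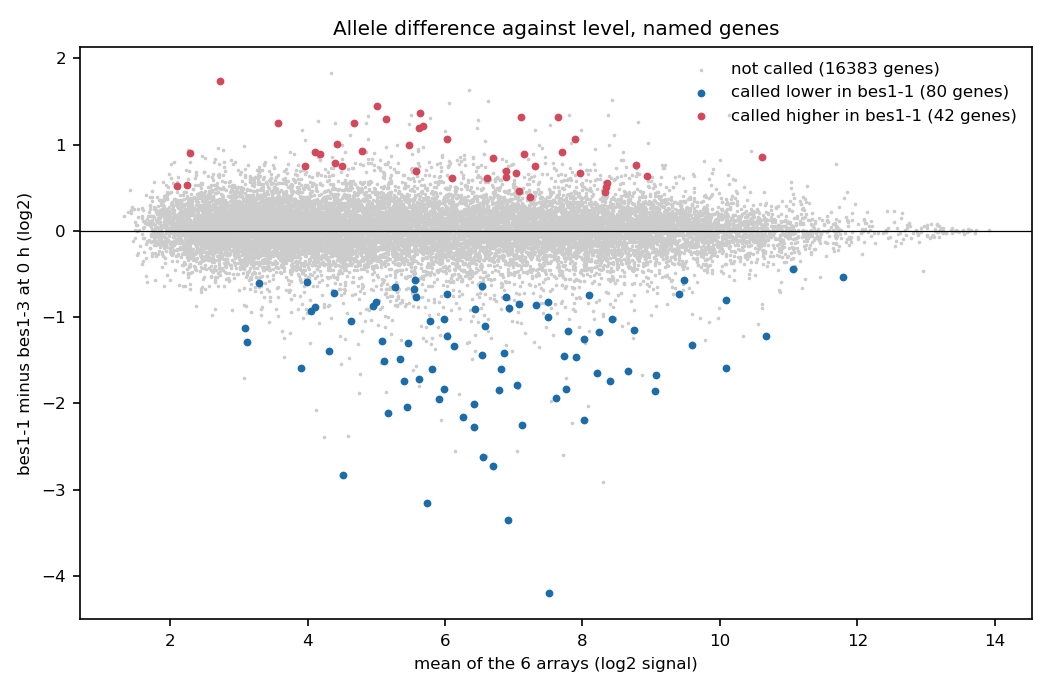
Allele difference at 0 h (bes1-1 minus bes1-3, log2) of each of the 16505 named genes against its mean over the 6 arrays (log2 signal). The 80 genes called lower (blue) and the 42 called higher (red) in bes1-1 are spread over the range of levels, and the largest differences lie below 0.

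The largest difference belonged to FAMT (AT3G44860), which encodes farnesoic acid carboxyl-O-methyltransferase. Its signal was 5.10, 4.70 and 6.44 in bes1-1, 9.51, 8.79 and 10.53 in bes1-3, and 9.02, 9.90 and 9.88 in WT (replicates 1 to 3). The bes1-1 arrays were low and did not overlap either other genotype. FAMT fell by 4.20 ± 0.37 (SE) on the log2 scale, an 18.4-fold lower signal (limma adjusted p = 0.000442). Against WT the difference was -4.19 ± 0.37 for bes1-1 and 0.01 ± 0.37 for bes1-3; both share arrays with the allele comparison.

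JRG21 (AT3G55970), annotated as a jasmonate-regulated gene, gave signals of 3.35, 2.64 and 3.31 in bes1-1 against 6.10, 5.92 and 5.78 in bes1-3. All 3 bes1-1 arrays were low, and their mean was below the lower quartile of its arrays, so it was not shown to be above background there. The fall in deposited signal was 2.83 ± 0.32 (limma adjusted p = 0.00251). With the bes1-1 level not shown to be above background, its true size is not measured. WT lay at 5.25, 5.81 and 5.19, between the alleles but nearer bes1-3.

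DFR (AT5G42800) encodes dihydroflavonol 4-reductase, which commits flavonoids to anthocyanin synthesis. Its signals were 4.56, 6.30 and 4.86 in bes1-1, 8.85, 8.93 and 8.01 in bes1-3, and 9.04, 7.24 and 7.74 in WT. Again the bes1-1 arrays were the low ones, without overlap. DFR fell by 3.36 ± 0.56 (limma adjusted p = 0.0245), and bes1-1 minus WT was -2.77 ± 0.56 (adjusted p = 0.103).

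CCR2 (AT1G80820) encodes a cinnamoyl-CoA reductase, an enzyme on the route to lignin monomers. It measured 4.84, 5.17 and 5.71 in bes1-1 and 7.35, 7.81 and 8.43 in bes1-3, with WT at 6.69, 7.50 and 7.89. The matched differences of -2.51, -2.64 and -2.72 were close to each other, and CCR2 fell by 2.62 ± 0.26 (limma adjusted p = 0.00113).

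The other 8 of the 12 largest falls carried a locus tag only. AT1G73325 stood at 3.51, 4.33 and 4.62 in bes1-1 and at 6.77, 7.07 and 8.09 in bes1-3, with WT between them at 5.43, 5.67 and 6.89. It fell by 3.16 ± 0.23 (limma adjusted p = 5.74e-05). AT2G17850, AT4G32630, AT1G10140, AT1G24580, AT4G08780, AT4G10265 and AT1G52000 fell by 2.04 to 2.72, with adjusted p-values of 0.0162 to 0.0497. For all 7 the bes1-1 arrays lay below the bes1-3 arrays. The matched differences of AT2G17850 ranged from -1.51 to -3.36 and those of AT4G08780 from -1.47 to -3.40.

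**Figure D2:**
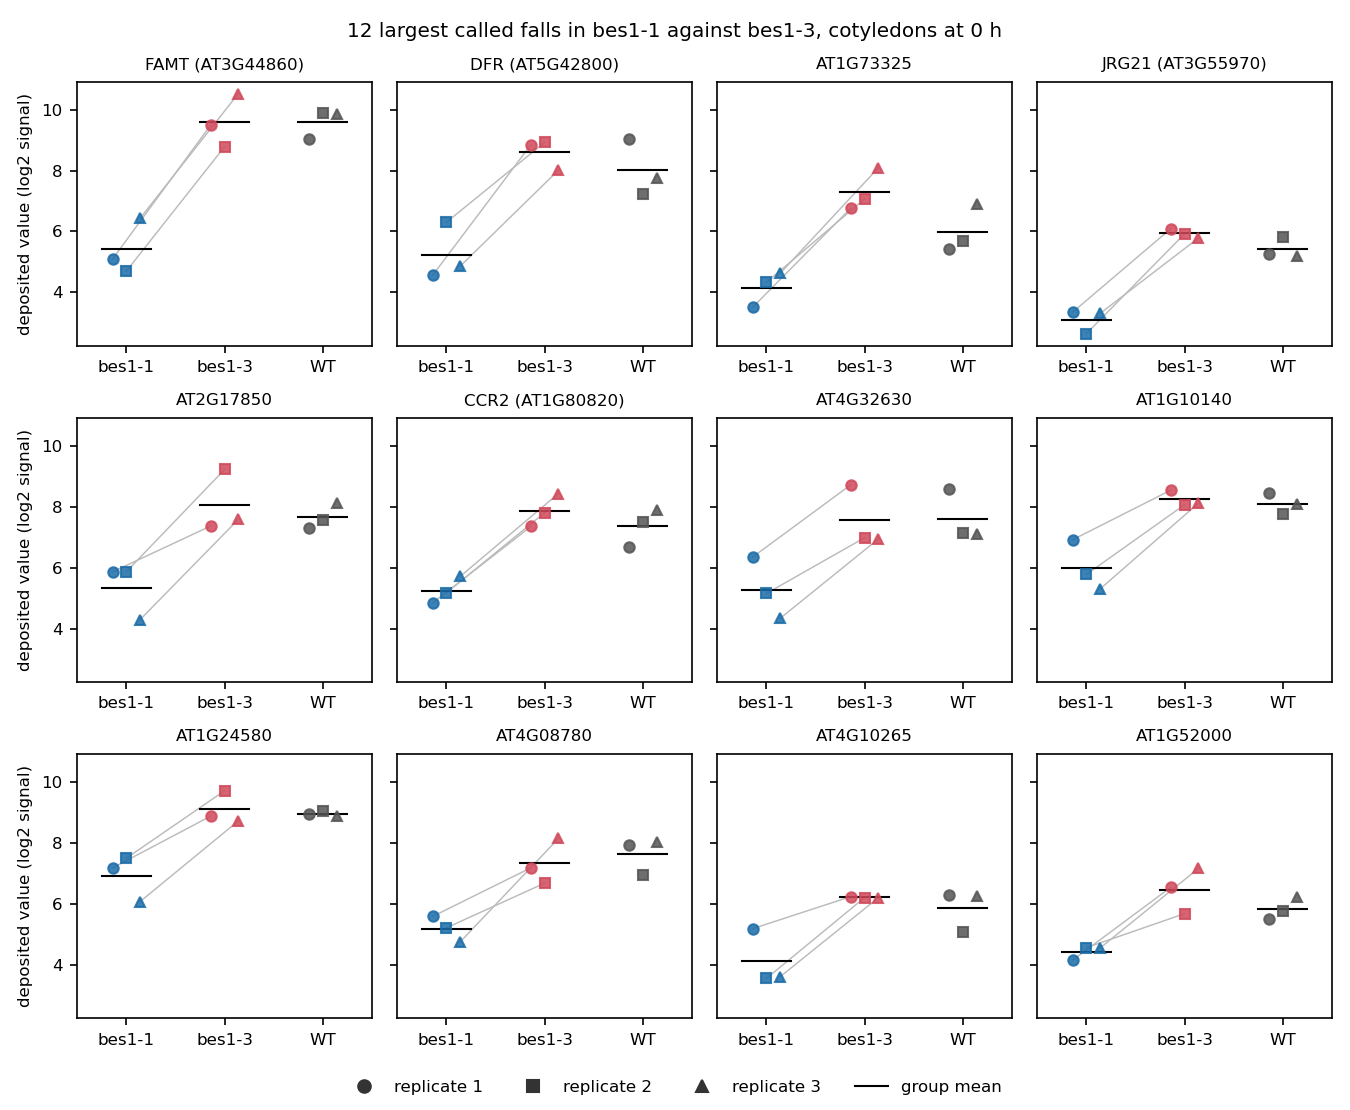
Deposited log2 signal at 0 h of the 12 genes with the largest called falls in bes1-1, by genotype; each point is 1 array, its shape the replicate, the bar the mean of 3 arrays, and grey lines join same-numbered arrays of the 2 alleles. In every panel the 3 bes1-1 arrays lie below the 3 bes1-3 arrays; for FAMT they lie between 4.70 and 6.44 against 8.79 and 10.53.

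Among the named genes, the smallest p-value belonged to AT5G11330, chosen after its values were seen. It measured 7.64, 8.66 and 8.37 in bes1-1, 9.51, 10.22 and 9.97 in bes1-3 and 9.29, 10.09 and 10.00 in WT. The bes1-1 arrays were low, and WT lay close to bes1-3. AT5G11330 fell by 1.67 ± 0.09 (limma adjusted p = 5.14e-06).

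The largest rises in bes1-1 were smaller than the largest falls. AT1G19320 led them, with signals of 3.61, 2.87 and 4.28 in bes1-1 against 1.70, 1.75 and 2.11 in bes1-3 and 2.34, 1.97 and 1.92 in WT. The bes1-1 arrays were the high ones without overlap, but both allele means were below the mean lower quartile of their arrays. In bes1-1, replicates 1 and 3 lay above their own quartiles (3.222 and 4.089), and in bes1-3 no replicate did. The rise was 1.73 ± 0.29 (limma adjusted p = 0.0245).

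OASA2 (AT3G22460), annotated as an isoform of O-acetylserine (thiol) lyase, the enzyme class that makes cysteine, measured 5.28, 5.21 and 5.42 in bes1-1. It measured 3.72, 4.04 and 4.40 in bes1-3 and 4.37, 5.13 and 4.52 in WT. The alleles did not overlap, and OASA2 rose by 1.26 ± 0.22 (limma adjusted p = 0.0272).

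The other 10 of the 12 largest rises, AT3G24450, AT1G48745, AT2G31990, AT2G16750, AT1G01240, AT4G29570, AT2G35585, AT1G69430, AT4G09760 and AT2G46780, rose by 1.06 to 1.45 (limma adjusted p-values of 0.0134 to 0.0497). For AT3G24450, AT2G16750, AT2G35585 and AT2G46780 the arrays of the alleles overlapped, and only the matched differences were of 1 sign. AT4G29570 had a bes1-3 mean below the lower quartile of its arrays.

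**Figure D3:**
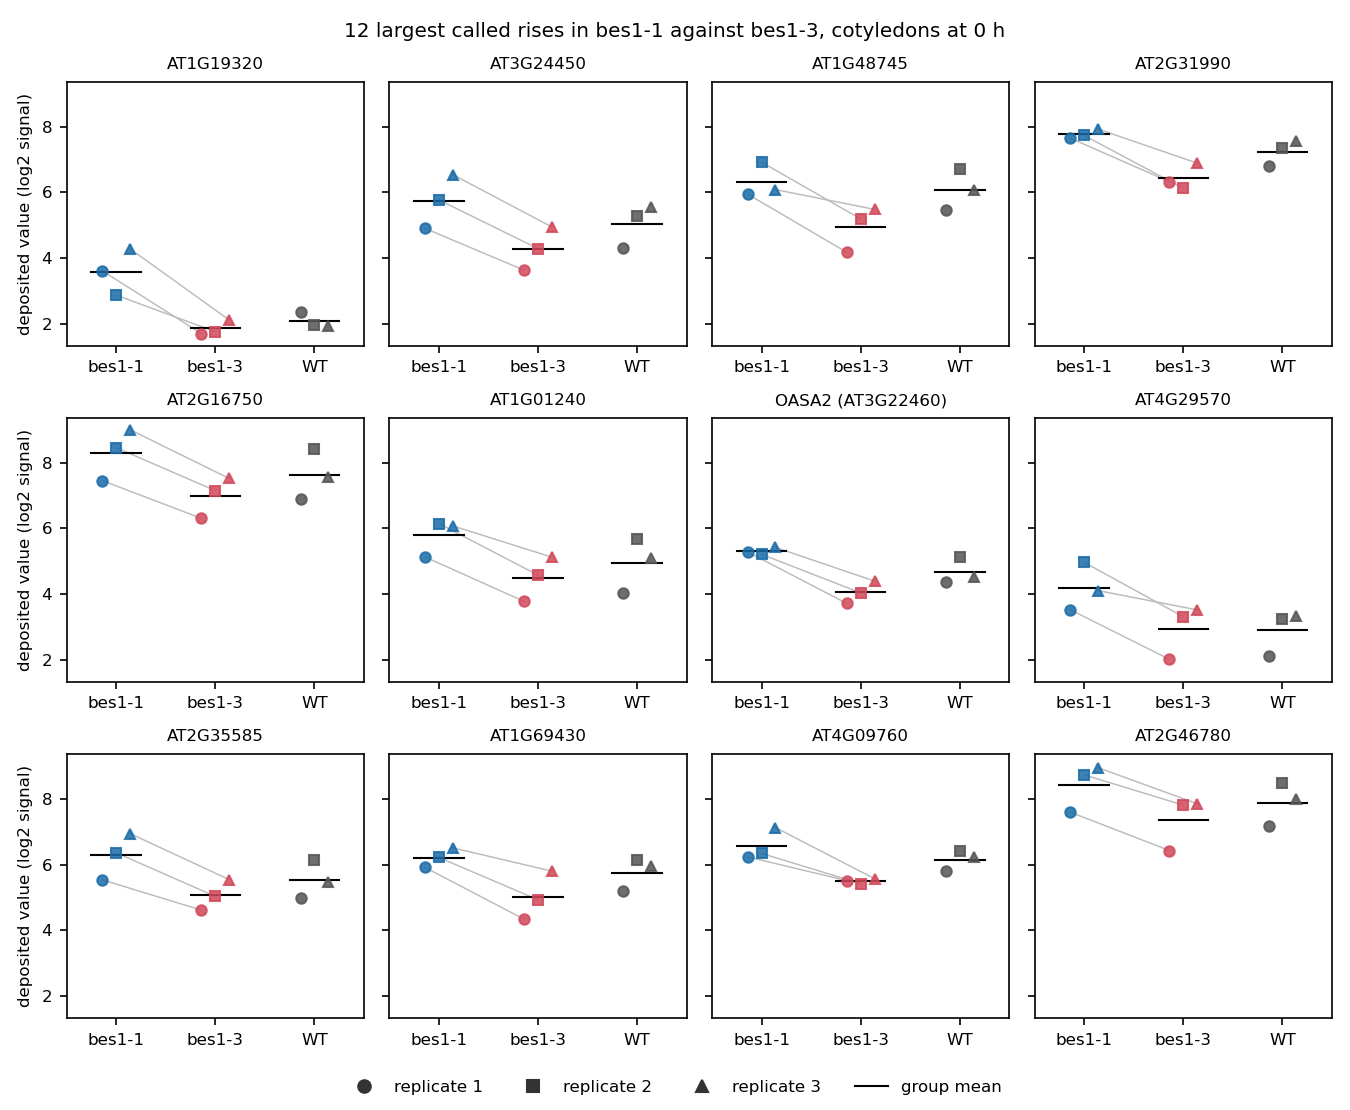
Deposited log2 signal at 0 h of the 12 genes with the largest called rises in bes1-1, drawn as for the falls. In AT1G19320 the bes1-1 arrays lie between 2.87 and 4.28 and the bes1-3 arrays between 1.70 and 2.11; in AT3G24450, AT2G16750, AT2G35585 and AT2G46780 the groups overlap while each grey line slopes the same way.

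Of the 122 called genes 18 have a symbol, 14 of them lower in bes1-1. Those described next were chosen after their values were seen. PDC2 (AT5G54960) encodes a pyruvate decarboxylase, the first enzyme of ethanol fermentation, and measured 7.20, 6.69 and 7.65 in bes1-1 against 8.57, 8.78 and 8.59 in bes1-3. WT measured 8.36, 8.39 and 8.38, and bes1-1 was the low genotype. PDC2 fell by 1.47 ± 0.19 (limma adjusted p = 0.00742). AlaAT1 (AT1G17290), an alanine aminotransferase that links pyruvate and alanine, was abundant and fell by 0.54 ± 0.09 (adjusted p = 0.0259), with 11.68, 11.50 and 11.39 in bes1-1 and 12.19, 12.09 and 11.89 in bes1-3.

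Genes of the cell wall and of lignin precursors were also among them. The list of secondary wall and lignin genes had 7 of 36 entries measured, with 0 called and a median of 0.059. Its lowest difference was -0.735, so its measured members did not include CCR2, TBL26 or BGLU46. TBL26 (AT4G01080) belongs to the trichome birefringence-like family, which includes O-acetyltransferases of wall polysaccharides. It measured 7.70, 7.46 and 6.99 in bes1-1 and 8.79 to 9.48 in bes1-3, and fell by 1.65 ± 0.23 (limma adjusted p = 0.0130). BGLU46 (AT1G61820), a beta-glucosidase of monolignol glucosides, fell by 1.28 ± 0.22 (adjusted p = 0.0280), with overlapping arrays and both means below the lower quartile of their arrays.

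FHL (AT5G02200), which helps import phytochrome A into the nucleus, measured 7.22, 7.27 and 7.69 in bes1-1 and 8.62, 9.13 and 8.19 in bes1-3, and fell by 1.25 ± 0.23 (limma adjusted p = 0.0344). The remaining falls were under 1 in size. IQD23 and IQD25, of a calmodulin-binding family, fell by 0.83 ± 0.14 and 0.67 ± 0.14. MSRB9, a methionine sulfoxide reductase, fell by 0.80 ± 0.16, FLR1 by 1.00 ± 0.20 and the MADS-box gene AGL34 by 0.57 ± 0.11; the adjusted p-values of these 5 were 0.0259 to 0.0489. The other higher genes with a symbol were ULT1, a regulator of the floral meristem, at 0.70 ± 0.14, ALN, the allantoinase of purine breakdown, at 0.56 ± 0.11, and LCR45, a defensin-like peptide, at 0.52 ± 0.11 (limma adjusted p-values of 0.0445 to 0.0482). Both LCR45 means were below the lower quartile of their arrays.

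Genes were next read by list. For each list the share called can be set against 0.739% of all named genes, and the median against 0.024. Of the jasmonate, salicylate and defence genes 9 of 47 entries were measured, and 2 were called, both lower (FAMT and JRG21, which had been chosen with their change known). All 9 differences were below 0, against 45.8% of all named genes, with a median of -1.71, but the per-replicate medians were -0.318, -0.745 and -2.62. The defensin gene PDF1.2 had matched differences of -0.05, -1.30 and -6.48, and its mean difference of -2.61 ± 0.92 did not pass the test (limma adjusted p = 0.213). The near-identical PDF1.2b and PDF1.2c, whose probes may read each other's transcripts, followed the same order at -1.98 ± 0.82 and -1.71 ± 0.72. FAMT and JRG21 were chosen by their change, and the PDF1.2 genes may not be separate measures. Nothing is therefore read from the 9 signs or from the median of the list.

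Flavonoid and anthocyanin genes had 1 of 6 measured members called, DFR. Like FAMT and JRG21, DFR had been chosen with its change known, so nothing is read from that share. UF3GT, a glycosyltransferase of anthocyanins, measured lower in every matched pair, by -1.69, -1.63 and -1.12, but did not pass (limma adjusted p = 0.109). The flavonol glycosyltransferase UGT78D1 stood at -0.74 ± 0.20 (adjusted p = 0.111), and BAN and UGT78D3 at 0.04 and 0.11. Of 34 expansin and xyloglucan endotransglucosylase genes 1 was called: the expansin-like AT4G30380 (EXLB2) measured 5.36, 5.66 and 5.40 in bes1-1 and 6.26, 6.82 and 6.39 in bes1-3 and fell by 1.02 ± 0.20 (adjusted p = 0.0406). Among 84 defensin-like genes, 68 with a lower mean below the quartile, LCR45 alone was called.

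No member was called for brassinosteroid genes (4 of 49 entries measured), nuclear photosynthesis (15 of 31), secondary wall and lignin (7 of 36) or vascular markers (8 of 37). Most entries of these lists were thus not read. Nor was any called for autophagy (10 measured), UDP-glycosyltransferases (48), glutathione transferases (15), cytochromes P450 (21), auxin (20) or cytokinin (8). The brassinosteroid genes had a median of 0.366, with EXPA8, an expansin, at 0.89 ± 0.39 (limma adjusted p = 0.304) and the receptor-like kinase gene BRL1 at 0.40 ± 0.26 (adjusted p = 0.506). Of the autophagy genes 1 of 10 lay below 0, against 45.8% of all named genes, and their median was 0.246; ATG8E, which encodes a ubiquitin-like protein of the autophagosome, stood at 0.71 ± 0.28 (adjusted p = 0.261). At 72 h 9 of the 10 were below 0, against 49.5% of all named genes, with a median of -0.191. Called there were 2 of the 10, against 1.48% of all named genes. These were ATG8H and APG8A, chosen after their values were seen, with allele differences of -0.99 ± 0.18 and -0.90 ± 0.19 (limma adjusted p = 0.0289 and 0.0444). The secondary wall and lignin list had a larger difference at 72 h, with a median of -1.11, all 7 genes below 0 and 3 called. At 0 h, in leaf tissue with many chloroplasts, the light-harvesting gene LHB1B2 stood at 0.78 ± 0.34 and LHCB4.3 at -0.56 ± 0.19, neither past the test. The 63 plastid-encoded genes had a median of -0.003 and a range of -0.24 to 0.09.

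Markers of other cells and stages gave no call, with most entries of each of these lists not measured. The vascular markers ranged from -0.21 (OPS, a sieve element gene) to 0.27 (SWEET11, a phloem sucrose exporter), root markers had a median of -0.078 (5 measured) and seed genes one of 0.136 (4 measured). The stomatal lineage had a median of -0.428 over 4 genes, with MUTE at -0.91 ± 0.34 and STOMAGEN at -0.67 ± 0.29, neither called. The epidermis, cuticle and trichome list had a median of -0.503 over 2 genes, TRY at -0.82 ± 0.28 and TCL1 at -0.18 ± 0.18, neither called. In bulk samples, fewer cells of a type and less RNA per cell cannot be told apart.

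**Figure D4:**
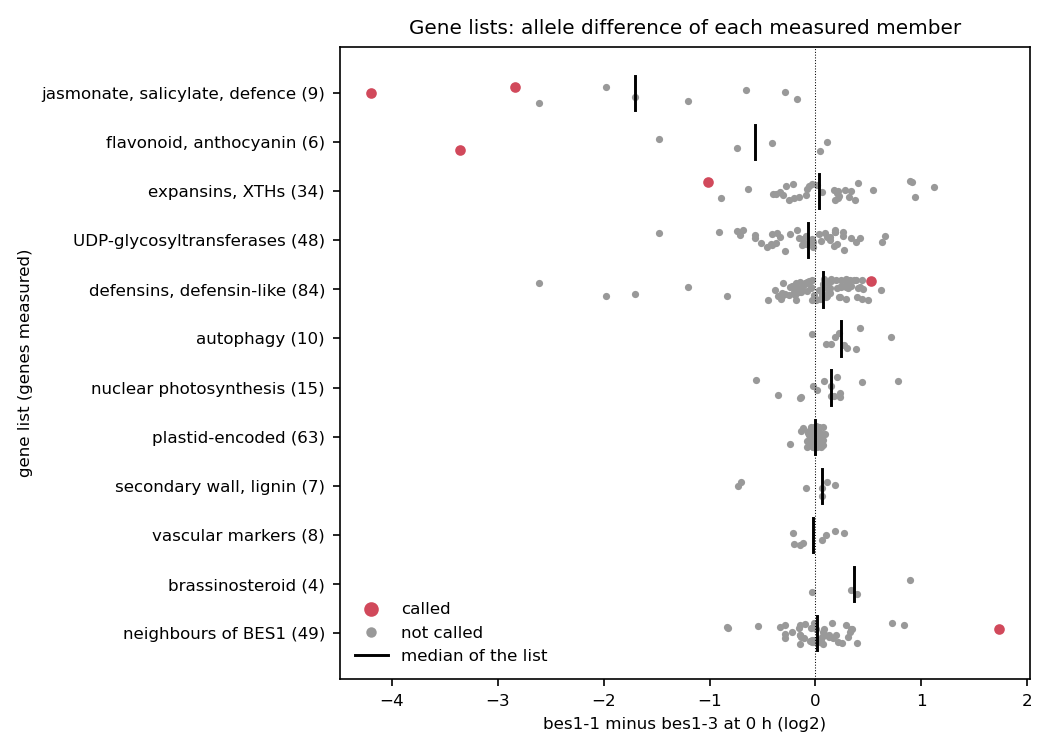
Allele difference at 0 h (log2) of each measured member of 12 gene lists; each point is a gene, red where called, and the bar is the list's median. Among the 12 lists drawn, the jasmonate and defence list (median -1.71) and the flavonoid list (-0.572) have medians well below 0. These lists hold FAMT, JRG21 and DFR, chosen with their change known. Of the lists not drawn, epidermis, cuticle and trichome had a median of -0.503 (2 genes) and the stomatal lineage one of -0.428 (4 genes). The plastid-encoded genes lie within -0.24 and 0.09.

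Both alleles are of BES1, so the genes around it on chromosome 1 were read in the gene table's order. In that window 49 genes were measured, of which 1 was called and the median was 0.01. That gene was AT1G19320, 3 genes from BES1. As given above, both of its means were below the mean lower quartile of their arrays, though not every bes1-1 array was below its own. The size and rank of its rise therefore rest on dim signals, above all in bes1-3. AT1G19340, next to BES1, measured 6.27, 6.76 and 7.44 in bes1-1 and 5.50, 6.21 and 6.22 in bes1-3; it stood at 0.84 ± 0.17 and did not pass (limma adjusted p = 0.0508). At 72 h AT1G19340 stood at 0.67 ± 0.17 and AT1G19320 at 0.28 ± 0.29, neither called. Over whole chromosomes, 0.651% (chromosome 3) to 0.901% (chromosome 4) of named genes were called.

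WT values were set beside those of both alleles at 0 h; the 3 comparisons share arrays. For the 80 genes lower in bes1-1 the median difference from WT was -1.03 in bes1-1 and 0.23 in bes1-3. For the 42 higher genes these medians were 0.437 and -0.39. Over all probe sets 41 were called for bes1-1 minus WT (0.107%) and 6 for bes1-3 minus WT (0.0156%). Of named genes 18 were called for bes1-1 minus WT (0.109%) and 0 for bes1-3 minus WT (limma; 2002 of all probe sets had an unadjusted p under 0.05 there).

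The 72 h arrays gave a separate measure of the allele difference, after VISUAL culture. Of the 80 genes called lower at 0 h, 31 were below 0 at 72 h, when 49.5% of all named genes were below 0, and their median was 0.059. Of the 42 called higher, 20 were above 0. Some of the 80 were dim in both alleles at 72 h. The bes1-1 and bes1-3 means there were 2.72 and 2.85 for AT2G17850, and 2.41 and 2.45 for AT4G10265. Those means were below the lower quartile of every 72 h array, the lowest of which was 3.145. For such genes no allele difference was shown to be above background at 72 h, so a value near 0 does not show that it was lost. How many of the 80 were so dim was not counted. At 72 h 446 probe sets (1.16%) and 244 named genes (1.48%) were called, 4 of these genes also called at 0 h. Across all 16505 named genes the correlation of the 2 allele differences was -0.0456; the arrays differ, but genes are not independent replicates.

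The 4 genes called at both times were chosen after their values were seen. AT5G11330 stayed lower in bes1-1, at 6.94, 7.83 and 7.80 against 8.50, 9.28 and 9.14 at 72 h, a fall of 1.45 ± 0.09 (limma adjusted p = 1.89e-05). The WT arrays at 72 h, 8.68, 9.54 and 9.42, lay nearer bes1-3. AT3G44510 was higher at both times, by 1.01 ± 0.20 and 1.21 ± 0.20, although its arrays overlapped at 0 h.

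AT2G47780 and AT2G35585 changed sign. AT2G47780 measured 4.91, 5.92 and 5.54 in bes1-1 and 6.22, 7.28 and 6.88 in bes1-3 at 0 h, a fall of 1.34 ± 0.19. At 72 h it was higher in bes1-1 by 0.97 ± 0.19 (limma adjusted p = 0.0334). AT2G35585 rose by 1.22 ± 0.25 at 0 h and fell by 1.17 ± 0.25 at 72 h (adjusted p = 0.0491).

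FAMT was low in every genotype at 72 h, at 3.32, 2.96 and 4.27 in bes1-1 and 2.68, 2.85 and 3.58 in bes1-3, and its allele difference there was 0.48 ± 0.37. All 3 means at 72 h were below the mean lower quartile of their arrays. In bes1-1, replicates 1 and 3 lay slightly above their own quartiles (3.223 and 4.06), while bes1-3 and WT lay below theirs on every array. FAMT was thus not shown to be above background in bes1-3 or WT, and the size of its allele difference at that time is not measured. The difference between the times was called for 36 of the 122 genes (limma interaction contrast), against 0.679% of named genes and 0.56% of probe sets; these 122 were chosen by the 0 h arrays that enter it, so nothing is read from that share.

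**Figure D5:**
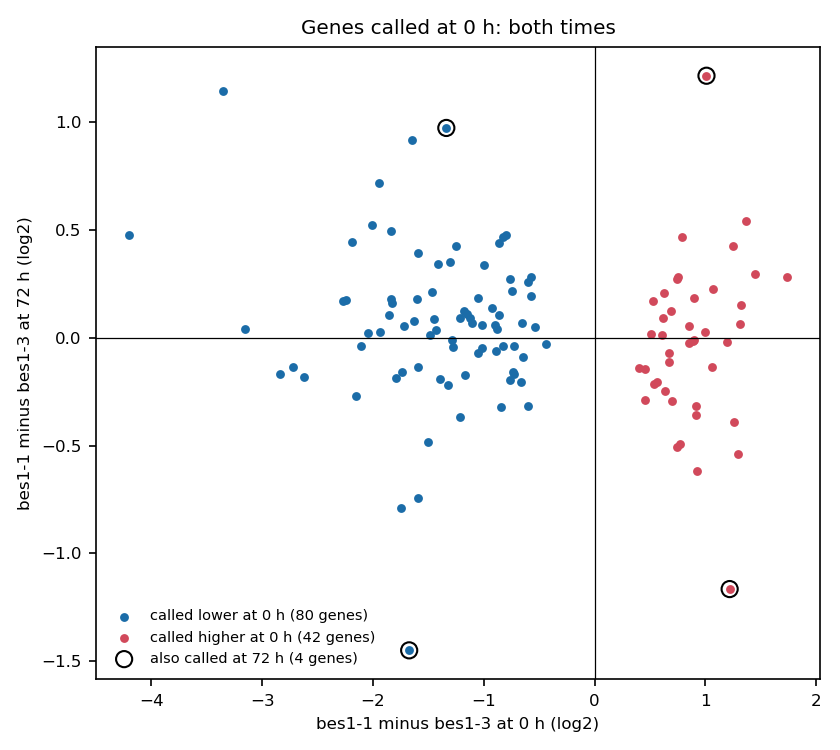
Allele difference (bes1-1 minus bes1-3, log2) at 72 h against that at 0 h for the 122 named genes called at 0 h; each point is a gene and circles mark the 4 also called at 72 h. Most points lie near 0 on the 72 h axis, and the 80 genes lower at 0 h have a median of 0.059 there. Some of these 80, such as AT2G17850 and AT4G10265, were dim in both alleles at 72 h, so their values near 0 do not show a lost difference. AT5G11330 and AT3G44510 keep their sign while AT2G47780 and AT2G35585 do not.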

How the data were processed

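Total RNA of cotyledons was hybridised, 1 biotin-labelled sample per Affymetrix array. The values the authors deposited are taken as log2 signals made with Affymetrix Expression Console, a tool named in the submitters' processing notes; the log base was read from the range of the values. Version, background correction and normalization of that step: not given in the sources used here. Arrays of replicate 1 had medians from 5.189 up to 5.464, those of replicates 2 and 3 from 5.913 up to 6.254.

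Values entered limma 3.58.1 (R 4.3.3; lmFit, eBayes) as deposited, with 6 group means and replicate number as a block over 18 arrays (10 residual degrees of freedom). Adjustment followed Benjamini-Hochberg over the 38408 probe sets, and calls were made at an adjusted p below 0.05. Standard errors (SE) are those of the fit. A group mean counted as below the lower quartile of its arrays when it was under the mean of their lower quartiles. As replicate 1 lies on a lower scale, a single array could still lie above its own quartile. The quartile is not a measured background. For the pairing, deviations of same-numbered arrays of the compared alleles from their group means correlated at 0.506, 0.264 and 0.221, and at 0.0862 within replicates 2 and 3 alone. Deviations within a group of 3 sum to 0, so the scale of replicate 1 enters each of the first 3 values. Only 0.0862 bears on matching replicates 2 and 3 by number, and it was weak. Matched differences of those replicates therefore rest on the numbers in the labels.

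The platform table listed 17481 probe sets, 16722 with 1 gene, 759 with several; 20927 are unnamed here. Of those with 1 gene, 16670 matched the TAIR10.1 gene table, used for names only. They gave 16505 loci, each represented by its probe set of highest mean. The table named 15.9% of loci that have a symbol and 54.1% of the others. Values of 7132 probe sets were identical to another's.

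Genes were named by rule: the 12 largest called falls and rises, up to 4 called members of each of 32 lists (or the 2 largest differences where none was called), and FAMT, JRG21 and DFR. Of the 32 lists, 3 matched no measured gene; the plastid-encoded one was then taken by chromosome. The members and lists were chosen with earlier results of these data known. Other genes named were chosen after their values were seen. The fit was tested on simulated data. Alternatives were other blocks, array sets, scalings, filters, variance models and leaving out arrays. Promoter motifs were planned and not analysed here. Figures used matplotlib 3.10.9 in Python 3.11.15.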

Additional observations from a re-analysis of the deposited data

Results flagged for a closer look

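For 16 genes, 15 of them described above and AT4G32350 chosen after its values were seen, the allele difference was not the same at the 2 times by the interaction contrast of the limma fit (adjusted p below 0.05; 215 probe sets were called in all, and 0 without the replicate block, with 1050 at an unadjusted p under 0.05). The value given is the difference at 72 h minus that at 0 h, on the log2 scale. All 16 had been called at 0 h, from arrays that also enter this contrast.

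Most were lower in bes1-1 at 0 h and near or above 0 at 72 h. The change was 4.67 for FAMT (from -4.20 to 0.48, adjusted p = 0.00768), 4.50 for DFR (from -3.36 to 1.14), 3.20 for AT1G73325, 2.67 for JRG21, 2.44 for CCR2 (AT1G80820) and 2.63 for AT1G24580. It was 2.57 for TBL26 (from -1.65 to 0.92), 2.31 for AT2G47780 (from -1.34 to 0.97), 1.68 for PDC2, 1.68 for FHL, 1.27 for MSRB9 and 0.86 for AGL34. Some of these rest on means below the mean lower quartile of their arrays: both alleles of FAMT and bes1-3 of AT1G24580 at 72 h, and bes1-1 of JRG21 at 0 h. The AT1G24580 mean (3.764) was only just below, and its replicate 1 (3.464) lay above that array's own quartile (3.169). For these 3 genes the change is one of deposited signals, and its true size is not measured.

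The other 4 were higher in bes1-1 at 0 h. AT2G35585 moved by -2.38 (from 1.22 to -1.17), AT1G01240 by -1.83, OASA2 by -1.65 and AT4G32350 by -1.27 (from 0.92 to -0.36, adjusted p = 0.00768). What sets the times apart was not tested.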

How the results depend on the processing

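Limits include 3 arrays a group, replicate 1 on another scale, and calls that need the spread of all 18 arrays. Every called gene named kept its sign in all its alternatives (up to 21). All called genes had matched differences of the same sign in every replicate, which largely fixes that outcome, so nothing is read from it. Calls did vary: FAMT was called in 17, AT1G73325 and CCR2 in 18, AT5G11330 in 19, and others in 3 to 15. Alternatives for counts of named genes, and leaving out WT or 72 h arrays, were chosen after seeing the data.

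Counts of probe sets are given in the order allele difference at 0 h (301), at 72 h (446), difference between the times (215), bes1-1 minus WT (41) and bes1-3 minus WT (6). No replicate block gave 27, 4, 0, 8 and 3. Replicates 2 and 3 only gave 11, 44, 12, 11 and 0. Arrays at 0 h only gave 6 for the alleles, 4 and 0 against WT; the 6 compared arrays gave 0. Array weights gave 189, 938 and 447 for the first 3. Median centring gave 198 for the alleles at 0 h and 22 for bes1-1 minus WT. Quantile normalization gave 262 and 117 at 72 h and between times, and scaling to reference genes 218 and 53. The dim filter gave 351 between times and 66 for bes1-1 minus WT, trend and robust variances 407 and 82, and identical probe sets kept once 354 between times. Limma calls of 0 had 4568 probe sets (6 arrays), 1050 (times, no block), 1635 (bes1-3 minus WT, 0 h arrays) and 1646 (the same, replicates 2 and 3) at an unadjusted p under 0.05. Leaving out a replicate or array gave 9 to 188, 4 to 558, 0 to 306, 4 to 113 and 0 to 6; the calls moved by over 1.5 times fell within 4 to 122 at 72 h, 0 to 96 between times and 0 to 3 for bes1-3 minus WT. Named genes called lower and higher (80 and 42) became 11 and 0 without the block.

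The genes that changed sign were all uncalled, and nothing is read from that, since calling favours the same sign in every replicate. ORA47 took 0.03 with median centring, and with scaling to reference genes AOP3 took -0.0034 and GAPC2 -0.0775. With replicates 2 and 3 only MGH3 took -0.0579, TCL1 0.0554, ATHSP22.0 0.0613, BHLH101 -0.114, OPS 0.0768 and EXPA18 -0.00685. Leaving out a replicate or array gave ranges of -0.337 to 0.252 for ORA47, -0.136 to 0.241 for AOP3, -0.0128 to 0.0982 for GAPC2, -0.0579 to 0.373 for MGH3, -0.392 to 0.0554 for TCL1, -0.281 to 0.0613 for ATHSP22.0, -0.114 to 0.466 for BHLH101, -0.608 to 0.0995 for OPS, -0.00685 to 0.368 for EXPA18, -0.135 to 0.725 for IAA29, -0.347 to 0.168 for MIR5028 and -0.408 to 0.00759 for psbT. The causes were not tested.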
